A study of Mus musculus with 2 samples.

Results

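The 4 opioid receptor genes Oprm1, Oprd1, Oprk1 and Oprl1 and the opioid peptide precursor genes Pdyn and Pnoc were described in total RNA of the aged mouse cortex. The 6 genes were chosen by symbol, out of 55536 annotated genes, and all 6 were found in every deposited table, with 53 of 141767 annotated transcripts. The tissue was the cerebral cortex of the left side, taken from B6CASTF1/J males, which are hybrids of B6 with CAST, at 18 to 20 months of age. Labels name no treatment, allele or second condition, so the 2 libraries, replicates 1 and 2, form 1 group. Labels number them as separate biological replicates with separate biosample identifiers but 1 donor identifier. They do not say whether the samples came from separate animals, so the spread between them may be technical. Levels are given in TPM, a transcript abundance that is per length and scaled to 1 total in each table, which allows genes to be set side by side. Expected counts, which are not per length, were used only to set replicate 1 against replicate 2.

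As background, opioid receptors are G protein-coupled receptors that act through inhibitory G proteins, which lower adenylyl cyclase activity, open inwardly rectifying potassium (GIRK) channels and damp neuronal firing and transmitter release. Oprm1 encodes the mu receptor, the main target of morphine, Oprd1 the delta receptor, which enkephalins prefer, Oprk1 the kappa receptor, which dynorphins prefer, and Oprl1 the nociceptin receptor, which binds classical opioid peptides poorly. Their peptides are released from larger precursors by proteases that recognise pairs of basic residues: Pdyn gives the dynorphins and neoendorphins, Pnoc gives nociceptin.

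The precursors are shown first by stretches that encode active peptides, since these separate the dynorphin from the nociceptin system. Each line starts with the codon pair of the basic residues before the peptide. Capitals mark the codons of the core at the start of the peptide, Tyr-Gly-Gly-Phe in Pdyn and Phe-Gly-Gly-Phe in Pnoc. Sequences are those of GENCODE M21 transcripts on mm10, read 5′ to 3′ on the minus strand that encodes both genes. The Pdyn stretches shown belong to dynorphin A and dynorphin B, in that order, and lie at chr2:129688094-129688150 and chr2:129688037-129688093. The nociceptin stretch lies at chr14:65404842-65404898, and each stretch lies within 1 coding exon. All stretches were cut at 57 bases, a length not fitted to each peptide, and that of dynorphin B runs past its peptide.
Pdyn, dynorphin A: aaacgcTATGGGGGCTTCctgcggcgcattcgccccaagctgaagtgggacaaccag
Pdyn, dynorphin B: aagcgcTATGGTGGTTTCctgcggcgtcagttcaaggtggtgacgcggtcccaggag
Pnoc, nociceptin: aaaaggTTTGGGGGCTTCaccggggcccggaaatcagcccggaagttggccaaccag

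Pdyn held 3 copies of the Tyr-Gly-Gly-Phe core and no Phe-Gly-Gly-Phe, and Pnoc held 1 Phe-Gly-Gly-Phe and no Tyr-Gly-Gly-Phe. Of 21793 genes with a coding sequence in whole codons, 73 (0.335%) held at least 1 Tyr-Gly-Gly-Phe and 109 (0.50%) at least 1 Phe-Gly-Gly-Phe, counted in any position. At least 3 copies of Tyr-Gly-Gly-Phe were held by 4 genes (0.0184%), namely Pdyn, the enkephalin precursor Penk with 7, and the keratin-associated genes Krtap19-2 with 5 and Krtap19-4 with 3. Pomc, the precursor of beta-endorphin, held 1. These counts describe the annotation and not the level of any peptide.

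The 4 receptors are shown by the 60 coding bases in which they are most alike, the stretch from the first intracellular loop into the second membrane-spanning helix. Capitals mark the 43 bases that are identical in all 4 receptors. In every receptor an intron separates the first 2 of these bases from the rest. The stretch lies at chr10:6789157-6789158 and chr10:6828885-6828942 on the plus strand in Oprm1, and at chr4:132144159-132144160 and chr4:132117411-132117468 on the minus strand in Oprd1. It lies at chr1:5589304-5589305 and chr1:5598590-5598647 in Oprk1 and at chr2:181715945-181715946 and chr2:181718377-181718434 in Oprl1, both on the plus strand.
Oprm1: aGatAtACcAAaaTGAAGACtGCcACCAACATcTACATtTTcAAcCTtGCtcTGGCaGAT
Oprd1: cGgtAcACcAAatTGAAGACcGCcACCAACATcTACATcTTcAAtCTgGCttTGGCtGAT
Oprk1: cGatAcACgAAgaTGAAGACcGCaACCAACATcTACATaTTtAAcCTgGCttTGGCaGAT
Oprl1: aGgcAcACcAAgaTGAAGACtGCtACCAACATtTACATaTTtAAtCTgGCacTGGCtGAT

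The position of this intron was shared while its length was not. It spanned 39726 bases in Oprm1, 26690 in Oprd1, 9284 in Oprk1 and 2430 in Oprl1. Over the whole aligned coding sequence, Oprm1 and Oprd1 were identical at 65.0% of bases, Oprm1 and Oprk1 at 64.8%, and Oprd1 and Oprk1 at 62.2%. Oprl1 was identical to Oprd1 at 61.0%, to Oprk1 at 59.3% and to Oprm1 at 58.5% of bases, so each of its identities was below those among the other 3 receptors. The longest exact run shared by transcripts of any pair of the 6 genes was 25 bases, between Oprk1 and Oprl1. The column of effective lengths in the first table implies reads of 100 bases, so no read of that length could match transcripts of more than 1 of these genes exactly.

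Of the 6 genes, the nociceptin receptor Oprl1 had the highest level in both libraries, at 24.05 TPM in replicate 1 and 24.72 TPM in replicate 2. The gene (ENSMUSG00000027584.16, chr2:181715016-181720985, plus strand) averaged 24.4 ± 0.47 TPM (SD, n = 2) from 810 and 1067 expected counts. It made up 59.8% of the summed TPM of the 4 receptors in replicate 1 and 60.1% in replicate 2, of sums of 40.19 and 41.15 TPM. By mean TPM it ranked 4725 among 22015 nuclear protein-coding genes, the highest rank of the 6. Pdyn ranked 7401, Oprd1 8326, Pnoc 10756 and Oprm1 11153.

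The dynorphin precursor Pdyn (ENSMUSG00000027400.11, chr2:129686565-129699844, minus strand) stood at 10.8 TPM in replicate 1 and 14.36 TPM in replicate 2, from 343 and 662 expected counts. Its mean was 12.6 ± 2.52 TPM (SD, n = 2), the widest SD of the 6 genes. Relative to the mean its SD was 20.0%, next to 21.5% for Oprm1 and at most 10.8% for the other 4 genes. The deposited intervals of its TPM did not overlap between the libraries, at 9.57 to 13.02 TPM in replicate 1 and 13.12 to 16.6 TPM in replicate 2.

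The delta receptor Oprd1 (ENSMUSG00000050511.1, chr4:132110726-132144486, minus strand) stood at 10.48 TPM in replicate 1 and 9.29 TPM in replicate 2, from 611 and 754 expected counts. It averaged 9.89 ± 0.84 TPM (SD, n = 2) and was the second receptor in level, with 26.1% and 22.6% of the summed receptor TPM. Pdyn exceeded it by 1.03-fold in replicate 1 and 1.55-fold in replicate 2, and their intervals separated in replicate 2 alone, so their order was not settled.

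The nociceptin precursor Pnoc, the mu receptor Oprm1 and the kappa receptor Oprk1 formed the low end of the range. Pnoc (ENSMUSG00000045731.6, chr14:65400673-65425472, minus strand) stood at 3.86 TPM in replicate 1 and 4.5 TPM in replicate 2, a mean of 4.18 ± 0.45 TPM (SD, n = 2), from 96 and 155 expected counts. Oprk1 (ENSMUSG00000025905.13, chr1:5588466-5606131, plus strand) stood at 2.70 TPM in replicate 1 and 3.12 TPM in replicate 2, a mean of 2.91 ± 0.30 TPM (SD, n = 2), from 135 and 244 expected counts. All 6 genes thus passed 1 TPM in both libraries, and Oprk1 ranked lowest, at 11461 of the nuclear protein-coding genes.

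The level of Oprm1 was the least certain. The gene (ENSMUSG00000000766.18, chr10:6758506-7038198, plus strand) was listed at 2.96 TPM in replicate 1 and 4.02 TPM in replicate 2, a mean of 3.49 ± 0.75 TPM (SD, n = 2), from 86 and 159 expected counts. Both values lay below the interval deposited with them, which ran from 4.45 to 8.57 TPM in replicate 1 and from 5.02 to 8.27 TPM in replicate 2. The deposited posterior mean, at 6.34 TPM in replicate 1 and 6.59 TPM in replicate 2, lay within that interval. With the posterior mean, Oprm1 would stand above Pnoc, and with the TPM it stood below. Of the 6 genes, only Oprm1 lay outside its own interval in either library.

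Of the 15 pairs of the 6 genes, 12 were separated in both libraries, meaning that the deposited TPM intervals did not overlap and lay in the same order. Oprl1 exceeded each of the other genes, by 2.23-fold in replicate 1 and 1.72-fold in replicate 2 over Pdyn, and by 8.91-fold and 7.92-fold over Oprk1. Pdyn exceeded Pnoc, the other precursor, by 2.80-fold in replicate 1 and 3.19-fold in replicate 2, and it exceeded Oprk1, the receptor that its peptides prefer, by 4.0-fold in replicate 1 and 4.60-fold in replicate 2. Oprl1 exceeded Pnoc, which encodes its ligand, by 6.23-fold in replicate 1 and 5.49-fold in replicate 2. The receptor was thus above its ligand precursor in the nociceptin system, and the precursor above its receptor in the dynorphin system. These are RNA levels of the tissue and say nothing of peptide or receptor protein. Not separated were Pdyn from Oprd1, Pnoc from Oprm1 and Pnoc from Oprk1. Oprm1 was separated from Oprk1 by its intervals, although its TPM exceeded that of Oprk1 by only 1.10-fold in replicate 1 and 1.29-fold in replicate 2.

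**Figure D1:**
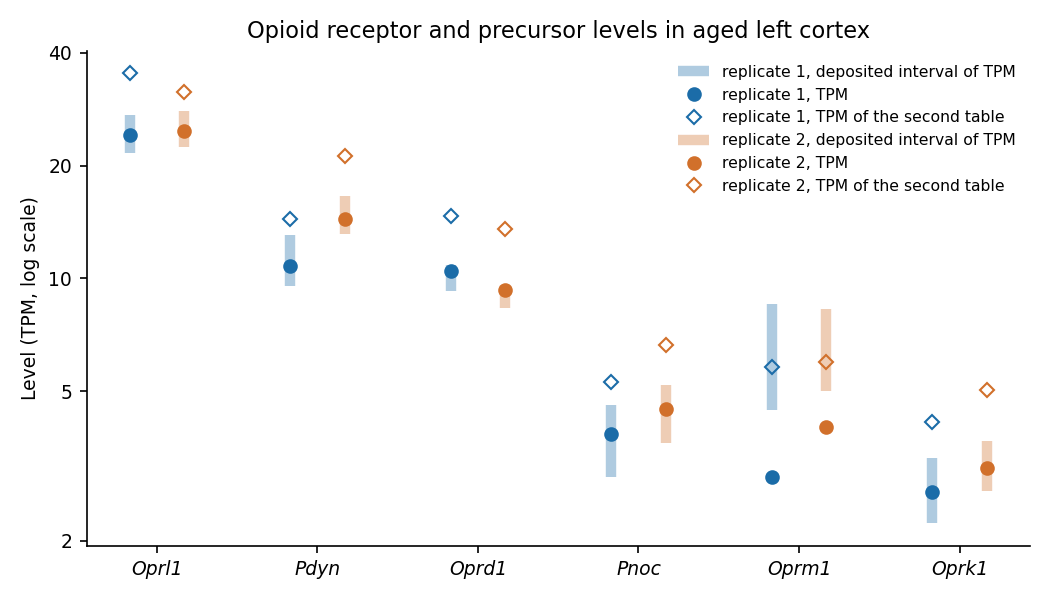
Level of the 6 genes in each library, in TPM on a log axis. Filled circles are the deposited TPM of the first table, shaded bars the interval deposited with it, and open diamonds the TPM of the second table, with replicate 1 left of replicate 2. Oprl1 stands highest in both libraries, and for Oprm1 the circles lie below their bars.

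The second quantification of the same libraries, deposited in the layout of kallisto where the first has that of RSEM, also placed Oprl1 highest. Oprl1 was at 35.2 TPM in replicate 1 and 31.3 TPM in replicate 2, Oprd1 at 14.7 and 13.6 TPM, and Pdyn at 14.4 and 21.2 TPM. Its values cannot be set beside those of the first table, because each table was scaled to its own total. Oprm1 was at 5.82 TPM in replicate 1 and 5.99 TPM in replicate 2, next to Pnoc at 5.29 and 6.63 TPM and Oprk1 at 4.14 and 5.04 TPM. All 15 pairs kept 1 order in both libraries in the first table and 13 of 15 in the second.

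Replicate 1 was then set against replicate 2. Of the 6 genes, 5 had a lower scaled count in replicate 1, of which Oprl1 turned the other way with spike-in totals. The median log2 ratio of replicate 1 over replicate 2 was −0.43, against −0.03 over the 16170 genes tested, those whose counts averaged at least 20. By scaled counts Pdyn differed most, at a log2 ratio of −0.60 (95% counting interval −0.80 to −0.41), 1.52-fold lower in replicate 1. It was the 1 gene of 6 past 1.5-fold, all of them lying above the minimum count, and none was past 1.5-fold higher. Over all genes tested, 2.34% were past 1.5-fold lower and 7.66% past 1.5-fold higher in replicate 1. Among nuclear protein-coding genes alone these shares were 2.01% and 1.96%. Under several other scalings Pdyn fell short of 1.5-fold, at 1.39-fold lower with spike-in totals and 1.33-fold lower in deposited TPM, where Oprm1 differed more, at 1.36-fold lower.

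The mu and kappa receptors lay nearest to Pdyn. Oprm1 had a log2 ratio of −0.54 (−0.94 to −0.16), 1.45-fold lower in replicate 1, and Oprk1 one of −0.51 (−0.82 to −0.20), 1.42-fold lower. With Pdyn they were the 3 of 6 genes whose counting interval lay wholly below 0, against 22.9% of all genes tested, and none lay wholly above 0, against 17.3%. With spike-in totals the same count of 3 stood against 6.72% of all genes tested, and 1 gene against 33.1% lay above 0. Among nuclear protein-coding genes, the class of the 6 genes, 25.3% lay below 0 and 13.1% above. With spike-in totals these shares were 6.88% and 30.6%. In absolute size the ratios of Pdyn, Oprm1 and Oprk1 exceeded those of 90.4%, 88.8% and 88% of all genes tested. These percentages were not computed within nuclear protein-coding genes, where fewer passed 1.5-fold. There 2.01% were past it lower and 1.96% higher in replicate 1, against 2.34% and 7.66% of all genes tested. Their intervals overlap one another and are wide because few reads lay behind them.

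Pnoc had a log2 ratio of −0.34 (−0.73 to 0.03), and its interval reached 0 in the first table. In the second table it did not, at −0.41 (−0.78 to −0.06). Oprl1 and Oprd1 lay close to 0, at −0.05 (−0.19 to 0.08) and 0.04 (−0.12 to 0.20). Their signs were not settled: over the 8 alternatives run, Oprl1 ranged from −0.09 to 0.07 and Oprd1 from −0.01 to 0.17. With spike-in totals Oprd1 stood at 0.17 and its interval, from 0.01 to 0.32, lay above 0. Oprk1, Oprm1, Pdyn and Pnoc were below 0 under all 8 alternatives. Oprl1 and Oprd1, the receptors of highest level, thus had the ratios nearest to 0.

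**Figure D2:**
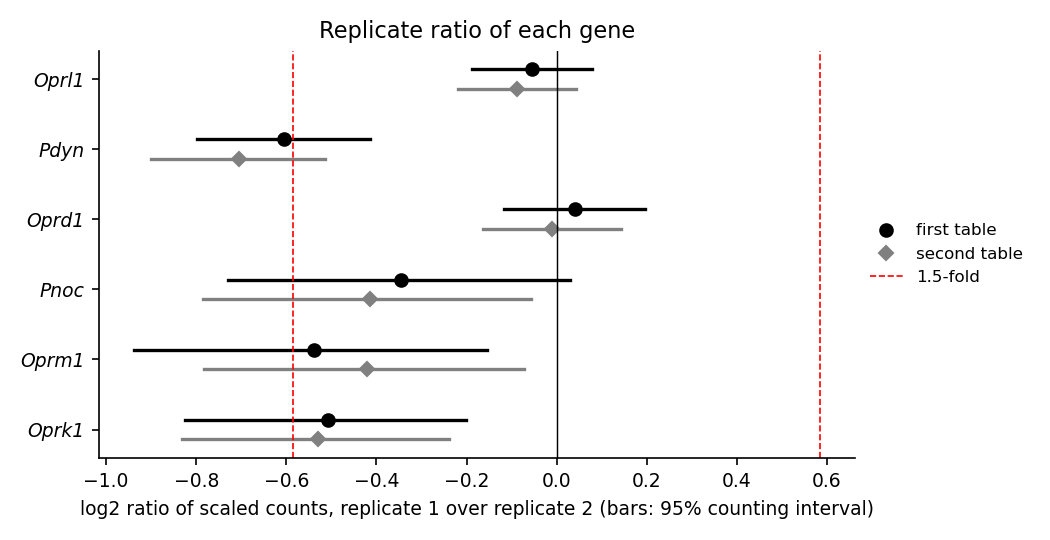
Log2 ratio of scaled counts of each gene, replicate 1 over replicate 2, with negative values lower in replicate 1. Circles are the first table and diamonds the second, horizontal bars are 95% counting intervals, and dashed lines mark 1.5-fold. Pdyn, Oprm1 and Oprk1 lie wholly below 0 in both tables, and Oprl1 and Oprd1 straddle it.

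Markers of the striatum, which lies beneath the cortex, differed between the libraries in the same direction. All 10 genes of the list for striatal projection neurons were past 1.5-fold lower in replicate 1, with a median log2 ratio of −1.11. Their summed level was 181.7 TPM in replicate 1 and 357.79 TPM in replicate 2, and none was at 0. The dopamine receptor Drd1 stood at 8.68 TPM in replicate 1 and 22.41 TPM in replicate 2, and Drd2 at 2.09 and 10.68 TPM. By scaled counts in the first table, Pdyn, Oprm1 and Oprk1 also had counting intervals below 0. The intervals of Oprd1, at a log2 ratio of 0.04 (−0.12 to 0.20), and Oprl1, at −0.05 (−0.19 to 0.08), included 0. That of Pnoc, at −0.34 (−0.73 to 0.03), did so too. The part of the striatal markers in the ratios of these opioid receptor and precursor genes was not tested. In tissue RNA, fewer cells of a type and less RNA per cell cannot be told apart.

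The other marker lists differed less, and several lay in the same direction. The 7 deep layer markers had a median log2 ratio of −0.24, with 5 intervals below 0, and summed levels of 189.48 TPM in replicate 1 and 198.85 TPM in replicate 2. Inhibitory neuron markers, a class that includes Pdyn and Pnoc neurons, had a median of −0.11, with 5 of 9 intervals below 0 and 1 above, and sums of 591.81 TPM in replicate 1 and 592.85 TPM in replicate 2. Excitatory neuron markers summed to 1942.47 TPM in replicate 1 and 1790.31 TPM in replicate 2, and upper layer markers to 421.87 and 375.55 TPM, so markers of the labelled tissue were present in both. Markers of the claustrum and endopiriform nucleus had a median log2 ratio of −0.05 and sums of 136.72 and 136.19 TPM. Among glial lists, oligodendrocyte markers had a median of −0.24, with 4 of 5 intervals below 0 and Opalin past 1.5-fold lower at −0.89. Microglial markers had 3 of 4 intervals below 0. Astrocyte markers had a median of −0.08, with 1 of 4 intervals below 0 and 1 above. Their sums were 854.16 TPM in replicate 1 and 769.59 TPM in replicate 2. Over nuclear protein-coding genes, 25.3% of intervals lay below 0 and 13.1% above, or 6.88% and 30.6% with spike-in totals. With spike-in totals the counts below 0 were 3 for each of the deep layer, inhibitory neuron and oligodendrocyte lists. They were 1 each for microglia and astrocytes, and the striatal list stayed at 10 past 1.5-fold lower. The part of these markers in the ratios of the 6 genes was not tested. Hypothalamic markers summed to 1.76 TPM in replicate 1 and 0.92 TPM in replicate 2. Hcrt and Agrp were at 0 in replicate 2, against 1 count each in replicate 1.

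The transcripts of each gene were estimated separately in both transcript tables. For 5 of the 6 genes, 1 transcript held the largest share of the gene's TPM in both tables and both libraries. Oprd1 has a single annotated transcript. Pdyn was nearly all Pdyn-201, at 91.4% of TPM in replicate 1 and 96.6% in replicate 2 in the first table, and 94.2% and 96.0% in the second. This transcript of 4 exons carries the 744 coding bases that hold the peptide cores shown above.

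Pnoc was the exception. In the first table Pnoc-201 held 49.95% of TPM in replicate 1 and 48.7% in replicate 2, just below Pnoc-202, whereas in the second it held 80.3% and 75.6%. Pnoc-202 lacks the last 56 bases of the third exon of Pnoc-201 (chr14:65404704-65405186), and its coding sequence shares the first 553 bases and then runs on to 636 bases in place of 561. The nociceptin core shown above lies before that point and is in both. All bases of Pnoc-202 are also in Pnoc-201, which has 769 bases of its own, so reads from the shared exons cannot be assigned to either. The tables did not agree on the leading transcript, and neither share is taken as the level of an isoform.

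The mu receptor had 31 annotated transcripts, of which 17 are protein-coding with 15 distinct coding sequences that end in 13 distinct ways over their last 30 bases. Oprm1-215, with 5 exons and 1194 coding bases, led throughout, at 64.7% of TPM in replicate 1 and 61.9% in replicate 2 in the first table, and 46.7% and 79.8% in the second. Its TPM in the first table lay above the interval deposited with it in both libraries. The values were 1.92 TPM against 0.61 to 1.55 in replicate 1, and 2.49 TPM against 1.09 to 2.34 in replicate 2. Its share of the gene is thus uncertain and may be lower than listed. Most other transcripts were listed at 0: 25 in replicate 1 and 24 in replicate 2 in the first table, and 20 and 23 in the second. Only 3 transcripts were above 0 in all 4 estimates. With 86 and 159 counts for the whole gene, transcripts listed at 0 were not detectable at this depth, which does not show that they were absent. Oprm1 also shares 96 of its 8037 exon bases with Ipcef1 on the opposite strand, a gene at 44.55 TPM in replicate 1 and 44.5 TPM in replicate 2. With the use of strand not given in the sources used here, reads over those bases are uncertain.

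The kappa receptor was led by Oprk1-204, at 35.2% of TPM in replicate 1 and 62.0% in replicate 2 in the first table, and 31.6% and 49.9% in the second. Oprk1-203, which has the same coding sequence of 1140 bases and a shorter untranslated part, held 29.1% and 8.31% in the first table and 22.4% and 27.1% in the second. In the first table it had 27.87 expected counts in replicate 1 and 12.79 in replicate 2. Its deposited TPM intervals overlapped, at 0.09 to 1.16 in replicate 1 and 4.56e-05 to 0.74 in replicate 2, so its share is uncertain. The retained-intron transcripts Oprk1-205 and Oprk1-202 held 20.2% and 15.5% of TPM in replicate 1 and 16.8% and 5.93% in replicate 2 in the first table. Protein-coding transcripts together held 64.3% of Oprk1 TPM in replicate 1 and 77.3% in replicate 2 in the first table. In the second they held 54.0% and 77.0%. Their share was lower in replicate 1 in both tables, which are estimates from the same libraries.

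The nociceptin receptor was led by Oprl1-201, which codes for the whole receptor in 1101 bases. It held 44.3% of TPM in replicate 1 and 40.4% in replicate 2 in the first table, and 48.0% and 57.6% in the second. Oprl1-209, annotated as a target of nonsense-mediated decay, held 14.2% and 8.10% in the first table and 14.9% and 11.9% in the second. The short transcript Oprl1-207 held 7.86% and 18.2% in the first table but 5.33% and 4.75% in the second, so its share in replicate 2 depended on the table. Protein-coding transcripts together held 67.7% of Oprl1 TPM in replicate 1 and 81.7% in replicate 2 in the first table, and 63.6% and 79.3% in the second.

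**Figure D3:**
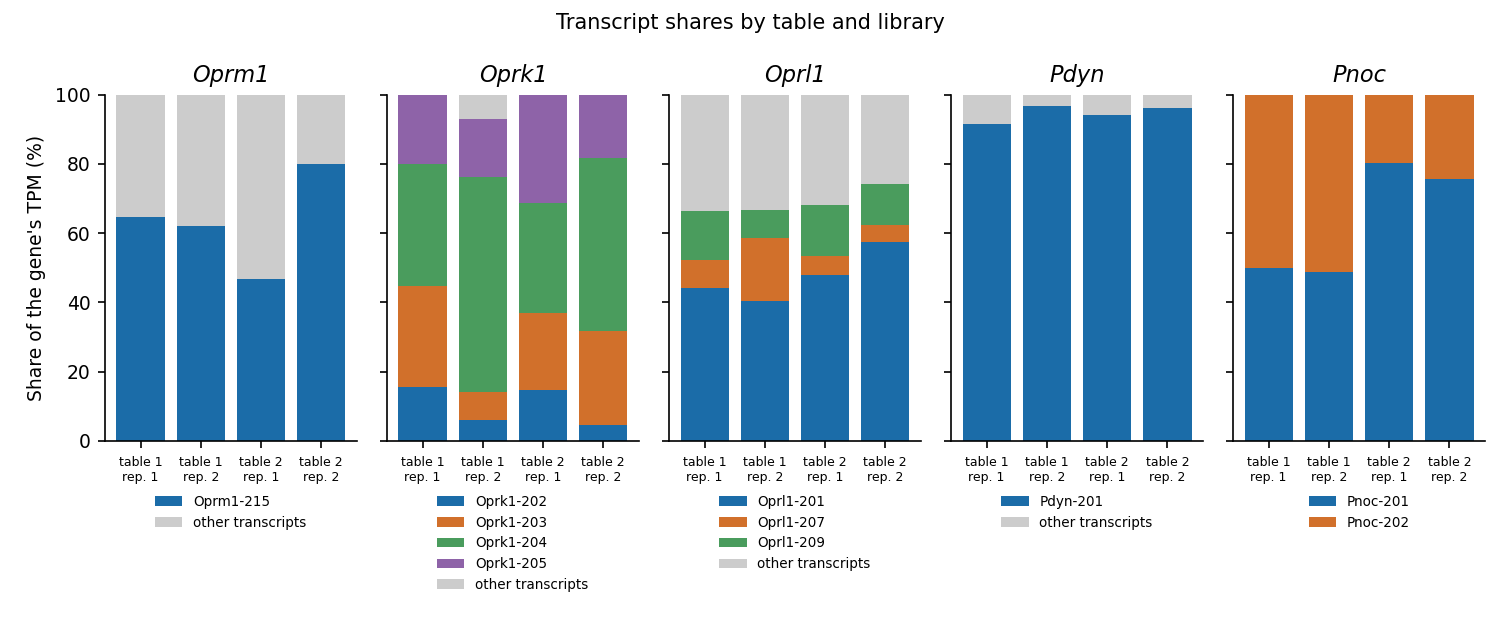
Share of each gene's TPM held by its transcripts, in percent, for the 5 genes with more than 1 annotated transcript. In each panel the bars are the first table in replicates 1 and 2, then the second table in replicates 1 and 2, colours are transcripts at a mean share of 10% or more in either table, and grey is the rest. Pdyn is nearly all Pdyn-201, and the division of Pnoc differs between the tables.

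The other genes of the opioid pathway were taken from 9 lists with 43 genes, of which 41 had enough counts to be tested. Among the 41, 3 were past 1.5-fold lower in replicate 1 and 0 past 1.5-fold higher, against 2.01% and 1.96% of nuclear protein-coding genes, the class to which they belong. Counting intervals lay below 0 for 19 (46.3%) and above 0 for 5 (12.2%), against 25.3% and 13.1% of nuclear protein-coding genes, and the median log2 ratio was −0.10. This balance turned with spike-in totals, where 7 intervals lay below 0 and 14 above, and the median was 0.03. The 3 were Penk, Adcy5 and Rgs9. Penk, the enkephalin precursor, stood at 45.84 TPM in replicate 1 and 97.26 TPM in replicate 2, a log2 ratio of −1.28 (−1.40 to −1.17). In both libraries it was thus above Pdyn and Pnoc, and its difference between the libraries was wider than that of Pdyn, whose interval lay apart from it. Rgs9, a regulator that speeds the shut-off of inhibitory G proteins and also a member of the striatal list, had a log2 ratio of −1.10 (−1.27 to −0.94). Adcy5, the adenylyl cyclase best known from the striatum, stood at 45.65 TPM in replicate 1 and 61.02 TPM in replicate 2, a log2 ratio of −0.60 (−0.65 to −0.54), just past the threshold. With spike-in totals, which moved every ratio by the same amount, Adcy5 would fall short of it. The same held with TMM factors from nuclear protein-coding genes, and under either scaling 2 of the 41 stayed past 1.5-fold lower. The part of the striatal markers in these 3 ratios was not tested. Pomc, with 10 counts in replicate 1 and 13 in replicate 2, and the channel gene Kcnj5, with 15 and 21, were under the minimum count.

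All 6 genes for the processing of peptide precursors stood above Pdyn and Pnoc in both libraries. Of these, the carboxypeptidase Cpe stood at 858 TPM in replicate 1 and 841 TPM in replicate 2, and Scg5, the chaperone of the convertase Pcsk2, at 235 and 236 TPM. All 6 had counting intervals below 0 and none was past 1.5-fold, with a median log2 ratio of −0.15, but with spike-in totals only 1 of the 6 intervals lay below 0. Of the 5 peptidases, the endothelin-converting enzyme Ece1 stood at 43.2 TPM in replicate 1 and 35.3 TPM in replicate 2 and Dpp3, an enkephalin-degrading peptidase, at 18.5 and 15.2 TPM, and 1 of 5 intervals lay below 0. Of the atypical receptors, Ogfr, the opioid growth factor receptor, stood at 13.5 TPM in replicate 1 and 14.5 TPM in replicate 2, and its interval did not exclude 0.

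Downstream of the receptors, Gnao1 was the highest of 5 inhibitory G protein alpha subunits, at 317 TPM in replicate 1 and 305 TPM in replicate 2, followed by Gnai2 at 97.2 and 103 TPM. Intervals lay below 0 for 3 of these 5, and for 0 of them with spike-in totals. The GIRK channel subunits Kcnj9 and Kcnj3 stood at 65.1 and 49.7 TPM in replicate 1 and at 57.0 and 39.9 TPM in replicate 2, and 2 of the 3 tested channel genes had intervals above 0. Gnao1, Gnai2, Kcnj9 and Kcnj3 were above each of the 4 receptors in both libraries, which Gnai3 and Kcnj5 were not. Of 6 adenylyl cyclases, Adcy1 stood at 148 TPM in replicate 1 and 123 TPM in replicate 2 and Adcy2 at 60.3 and 54.6 TPM, with 2 intervals below and 2 above 0, or 1 below and 4 above with spike-in totals.

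Of 6 receptor kinases and arrestins, which silence activated receptors, the kinase Grk2 stood at 106 TPM in replicate 1 and 98.99 TPM in replicate 2 and the arrestin Arrb1 at 92.7 and 77.0 TPM. Their intervals lay below 0 for 2 genes and above 0 for 1, or for 0 and 2 genes with spike-in totals. Of 6 RGS proteins, Rgs4 stood at 152 TPM in replicate 1 and 163 TPM in replicate 2 and Rgs7 at 50.6 and 45.1 TPM, and 4 intervals lay below 0, with a median of −0.27, or 3 below and 1 above with spike-in totals.

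**Figure D4:**
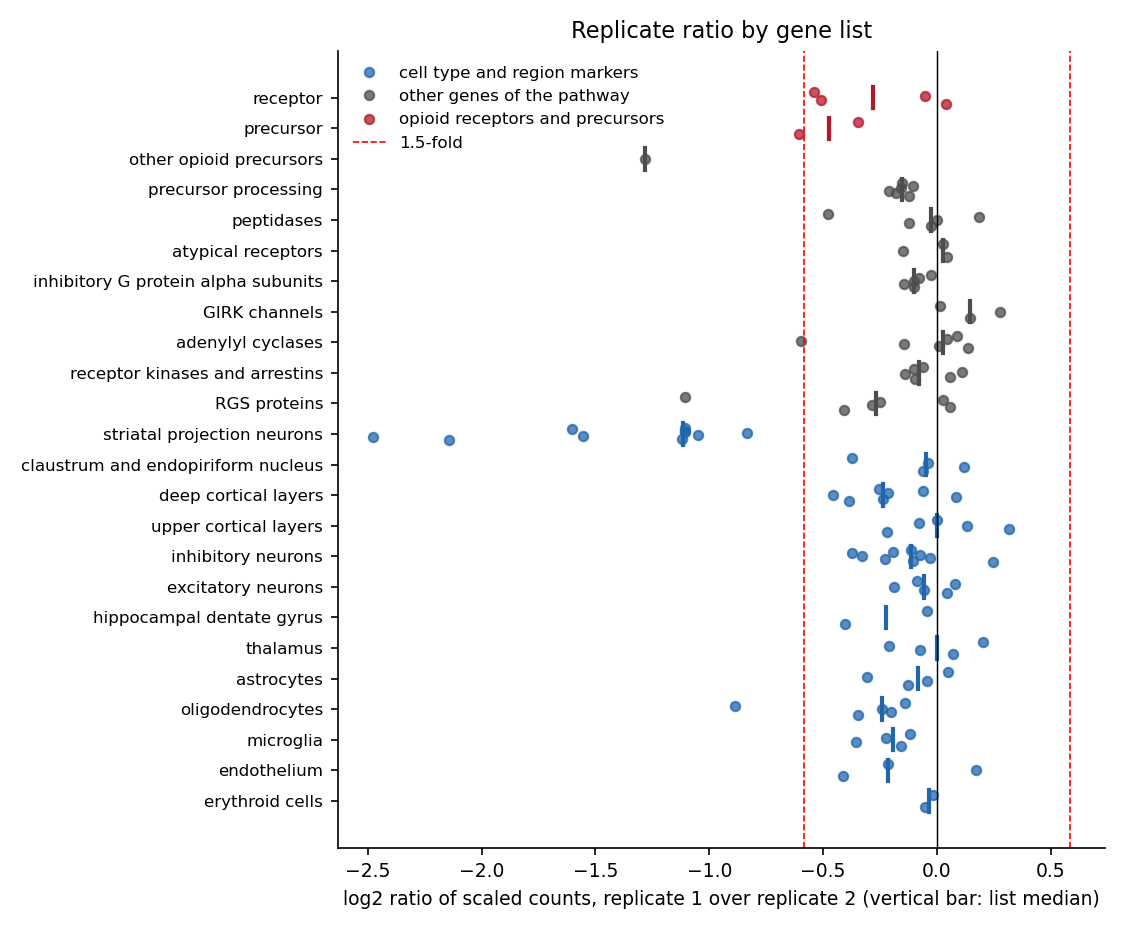
Log2 ratio of scaled counts, replicate 1 over replicate 2, for the opioid receptors and precursors, other genes of the pathway, and cell type and region markers, all with counts that averaged at least 20. Each point is a gene, vertical bars are list medians and dashed lines mark 1.5-fold. All 10 striatal markers, Rgs9 among them, lie past the line on the left, as do Penk, Pdyn, Adcy5 and the oligodendrocyte marker Opalin.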

How the data were processed

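Total RNA was sequenced from 2 libraries with 300 ng of input RNA each and ERCC spike-ins, per the labels. The authors deposited, for each library, a gene table and a transcript table in the layout of RSEM and a second transcript table in the layout of kallisto. Per the file headers these hold expected counts, estimated counts and TPM, each transcript's percent of the TPM of its gene, and lower and upper interval bounds and a posterior mean of TPM, deposited in TPM. The build mm10 and the annotation GENCODE M21 are named in the submitters' processing notes and deposited file lists. Aligner, tool versions, level of the deposited interval and use of strand: not given in the sources used here. CAST variants could lower counts against the reference genome, which was not measured here.

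Of 81881 gene entries, 55536 matched annotated genes, with 22827984 counts in replicate 1 and 29897486 in replicate 2. The other entries, spike-ins and tRNA among them, held 0.44% and 0.46% of counts and were left out. Expected counts were rounded and scaled with TMM (edgeR 4.0.16, R 4.3.3, all annotated genes), with factors of 1.02 and 0.984. Ratios are replicate 1 over replicate 2 after adding 0.5. Their 95% intervals are exact (Clopper-Pearson) and cover counting error only, since reads carry no molecular identifiers. With 1 library a side there is no p-value, and called means past 1.5-fold. The calculation was tested on simulated counts. Coding sequences were aligned with mafft 7.526. Alternatives included DESeq2 1.42.0 size factors and spike-in totals.

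The 6 genes and all lists were chosen with earlier results of these data known. All 6 are named, with the 2 genes of highest mean TPM in each pathway list, any pathway gene past 1.5-fold, and transcripts at a mean share of 10% or more. A gene and a sequence that these rules would name are not reported here. Marker genes beyond the list sums were chosen after their values were seen.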

Additional observations from a re-analysis of the deposited data

How the results depend on the processing

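The count of genes past 1.5-fold between the libraries, 1 (Pdyn), was 1 with DESeq2 size factors, the second table and a prior count of 1. A minimum of 100 counts or no filter could not change it. All 6 genes passed the minimum used, and Pdyn had 343 and 662 counts. The count was 0 with spike-in totals, the deposited TPM ratio and a fold of 2, and 4 with a fold of 5/4. It was also 0 with TMM factors from genes at 20 or more counts, at 100 or more counts, or from nuclear protein-coding genes, which were chosen after seeing the data, where Pdyn was 1.49-fold, 1.47-fold and 1.47-fold lower in replicate 1. Pdyn was thus close to the threshold, and its fold ran from 1.33 to 1.63 over the alternatives. Spike-in scaling put the median log2 ratio of all genes tested at 0.09, against −0.03. Genes with a counting interval below 0 numbered 3, and 4 in the second table. Of the 16170 genes tested, 1618 were past 1.5-fold, 357 of the fewer genes with a minimum of 100 counts, 672 with a fold of 2 and 3522 with a fold of 5/4. The 12 separated pairs became 11 with a 1.5-fold rule on the deposited TPM and 10 with that rule in the second table. The alternative with the posterior mean used the same intervals, so its count could not change. With 1 replicate left out the pairs numbered 12 to 13, where Pdyn and Oprd1 separated in replicate 2 alone. The 5 genes with 1 leading transcript became 5 or 6, and 5 to 6 with 1 replicate left out. Of the 41 pathway genes, intervals below and above 0 numbered 19 and 5, 17 and 6 with TMM from nuclear protein-coding genes, and 7 and 14 with spike-in totals, also chosen after seeing the data. Leaving out a replicate leaves no ratio and was not run for ratios. No paired analysis was possible because the series holds 1 group. The counts of Pnoc, Oprm1 and Oprk1 limit what their ratios can show.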

Other observations

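The listing of Oprm1 below its own deposited interval was set beside all genes, after its values were seen. Of 14708 genes that reached 1 TPM in each library, 127 (0.863%) lay below their interval in both. Among genes with 10 or more annotated transcripts, 103 of 2194 (4.69%) did, against 22 of 9972 (0.221%) with 2 to 9 transcripts and 2 of 2542 (0.0787%) with 1 transcript. Oprm1, with 31 transcripts, belonged to the first of these classes.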
